A study of Homo sapiens with 12 samples.

Results

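The comparison described here set spheroids of DU145KO+α2 cells, in which α2 integrin had been put back, against spheroids of the untransfected DU145KO cells. All genes that passed a filter on low counts were compared, 14732 of the 26485 genes of the deposited tables, in 8 of the 12 samples of the series. All lines go back to DU145, a long established cell line from a human prostate cancer. DU145KO cells carry an ITGA2 gene edited by Crispr/Cas9 and lack α2 integrin on the surface, and they had been selected by GFP and cleared of remaining α2 positive cells by sorting, a population for which the methods describe no isolation of single clones. DU145KO+α2 cells are DU145KO cells stably transfected with the pAWneo2 vector carrying α2 integrin cDNA and were grown in geneticin. DU145KO cells were neither transfected a further time nor, as far as the methods say, grown in geneticin. The presence of α2 integrin and the history of transfection and drug selection therefore cannot be told apart in this comparison. Values of the third line, DU145KO+vector, which carries the empty vector and was also grown in geneticin, are given beside those of single genes. Each line had 4 biological replicates, and each spheroid had been made from 8000 cells and grown in serum-free medium for 72 hours.

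Integrin α2 pairs with the β1 subunit to form a receptor for collagen, and it is expressed by normal prostate basal cells and by many epithelial tumours. Interferon stimulated genes are the antiviral and signalling genes that interferons switch on through the JAK kinases and the STAT factors, and the genes for MHC class I and class II, which show peptides to T cells, are raised by interferon gamma. Epithelial cells are held together by E-cadherin junctions, tight junctions and desmosomes, and a set of splicing factors and surface proteases, among them ESRP1 and ST14, is typical of them.

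The 8 samples held 15403946 to 19988111 gene counts each, with a median of 16749863 in DU145KO+α2 and 16329304 in DU145KO. Levels are given in CPM, counts relative to the library size after TMM scaling. A gene was taken as detected above 3 counts, or 0.150 to 0.198 CPM in these samples, a limit that holds for counting error alone. The cells had the markers of an epithelial line. KRT8 was at 319.5 to 623 CPM in the 8 samples, and KLK2, KLK3 and FOLH1, markers of luminal prostate cells, had no count. Of the 8 epithelial markers, KRT5, KRT14 and TP63 were at or below 3 counts in every sample. The sum of the 8 was 859 to 1154 CPM in DU145KO+α2 and 1210 to 1583 CPM in DU145KO, and this sum holds EPCAM and CDH1, which are described below. PTPRC, a marker of leukocytes, and CD3E, a marker of T cells, had no count in the 8 samples. CD14 and LYZ, also on the list of 7 leukocyte markers, were detected at 1.489 to 2.625 CPM and 1.209 to 2.243 CPM. The sum of the 7, most of it CD68, was 58.3 to 78.9 CPM in DU145KO+α2 and 50.7 to 85.9 CPM in DU145KO.

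Values of single genes are given in the order of replicates 1 to 4. ITGA2, the edited gene, was at 300.5, 328, 332 and 259 CPM in DU145KO+α2 and at 21.2, 20.1, 25.8 and 15.7 CPM in DU145KO. The lines did not overlap, and the change was 3.89 on the log2 scale (standard error 0.07), with an adjusted p of 6.57e-21 in edgeR. Per length, ITGA2 was at 38.6 ± 4.29 RPKM (SD, n = 4) in DU145KO+α2 and 2.59 ± 0.510 RPKM in DU145KO, so that transcripts of the edited gene were still counted in the knock-out. DU145KO+vector was at 17.6 ± 3.15 CPM. The counts do not separate the transcript of the transfected cDNA from that of the edited gene. ITGB1, the β1 partner, was counted at 5381, 3652, 4611 and 4374 CPM in DU145KO+α2 and at 4296, 3337, 3539 and 3545 CPM in DU145KO, and its log2 fold change was 0.29, with a standard error of 0.06 (adjusted p = 0.00214, edgeR) although the samples overlapped. Of 19 integrin genes tested, ITGB2 was the other one with a fold change above 2, and it was lower.

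Genes lower in DU145KO+α2 outnumbered the higher ones. Differential expression (DE) was taken as a fold change of more than 2 together with an adjusted p-value under 0.05. Of the 14732 genes, 377 (2.56%) were DE, 286 (1.94%) lower and 91 (0.618%) higher in DU145KO+α2. At an adjusted p-value below 0.05 and any fold change, 1823 genes (12.4%) were lower and 1463 (9.93%) higher, so the excess of lower genes was larger among the strong changes. The median log2 fold change of all genes tested was −0.003. The lower DE genes had a median log2 fold change of −1.43 and the higher ones of 1.18. Of the lower genes 75 had changed more than 4-fold, and of the higher genes 6. The samples of the lines did not overlap for 246 of the 286 lower and 75 of the 91 higher genes, where 7.43% of all genes tested did not overlap in the lower and 5.51% in the higher direction. In this bulk RNA, fewer cells of a type and less RNA per cell cannot be told apart.

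**Figure D1:**
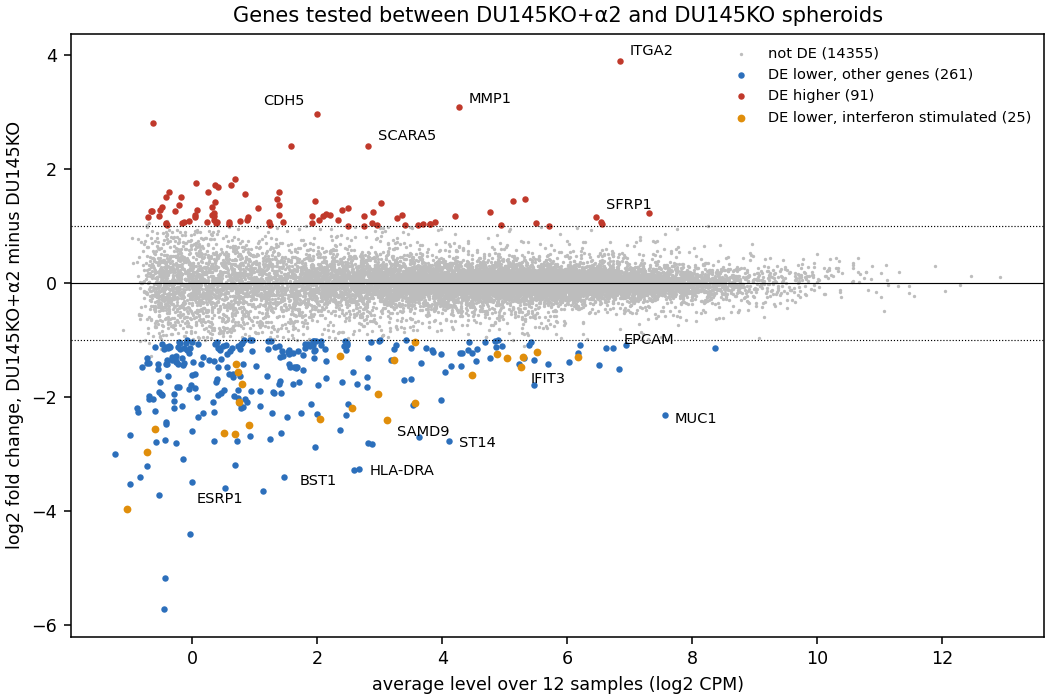
Log2 fold change of DU145KO+α2 against DU145KO (vertical axis) for each of the 14732 genes tested, against the average level over the 12 samples in log2 CPM (horizontal axis). Each point is a gene, and dotted lines mark a fold change of 2. The 286 lower DE genes, 25 of them interferon stimulated, had a median log2 fold change of −1.43. The 91 higher ones had a median of 1.18, and 75 lower and 6 higher genes were beyond a 4-fold change.

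Most DE genes had few reads. In DU145KO, 179 of the 286 lower genes were below 5 CPM and 19 above 50 CPM. Over all 14732 genes tested, 3214 were below 5 CPM and 5093 above 50 CPM in that line. In DU145KO+α2, 50 of the 91 higher genes were below 5 CPM and 10 above 50 CPM. Among the lower genes the most reads in DU145KO fell on MUC1, followed by ALDH1A3, an aldehyde dehydrogenase that makes retinoic acid and that was named after its values were seen. ALDH1A3 was counted at 183, 269.7, 154 and 135 CPM in DU145KO+α2 and at 350.2, 325, 470.1 and 442 CPM in DU145KO, with a log2 fold change of −1.14 (standard error 0.25). Among the higher genes the most reads in DU145KO+α2 fell on ITGA2, followed by CEMIP. CEMIP, a hyaluronan degrading protein also named after its values were seen, was counted at 336, 229, 323 and 269 CPM in DU145KO+α2 and at 200.3, 138, 83.3 and 101 CPM in DU145KO, with a log2 fold change of 1.22 (standard error 0.26) and 52.4 CPM on average in DU145KO+vector.

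The DE genes were sorted by function with 59 lists of genes. The lists held 158 of the 286 lower and 46 of the 91 higher genes, and 4276 of all genes tested. In 4 lists the median log2 fold change was below −0.5. These were MHC class II (−0.96), the epithelial programme (−0.92), interferon stimulated genes (−0.82) and MHC class I with its peptide loading genes (−0.68). No list had a median above 0.5. The highest medians were those of glycolysis and the hypoxia response (0.21), HOX and Iroquois genes (0.16) and cytosolic ribosomal proteins (0.15). Beyond these 4 lists the lower genes were spread over many, and 128 were in none. When at least 10 counts were demanded in each of the 8 samples, which drops genes that are low in a line, 16 interferon stimulated, 3 class II, 5 class I and 4 epithelial genes were DE and lower, in place of the 25, 6, 5 and 7 given below, and the class II median was −0.46.

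**Figure D2:**
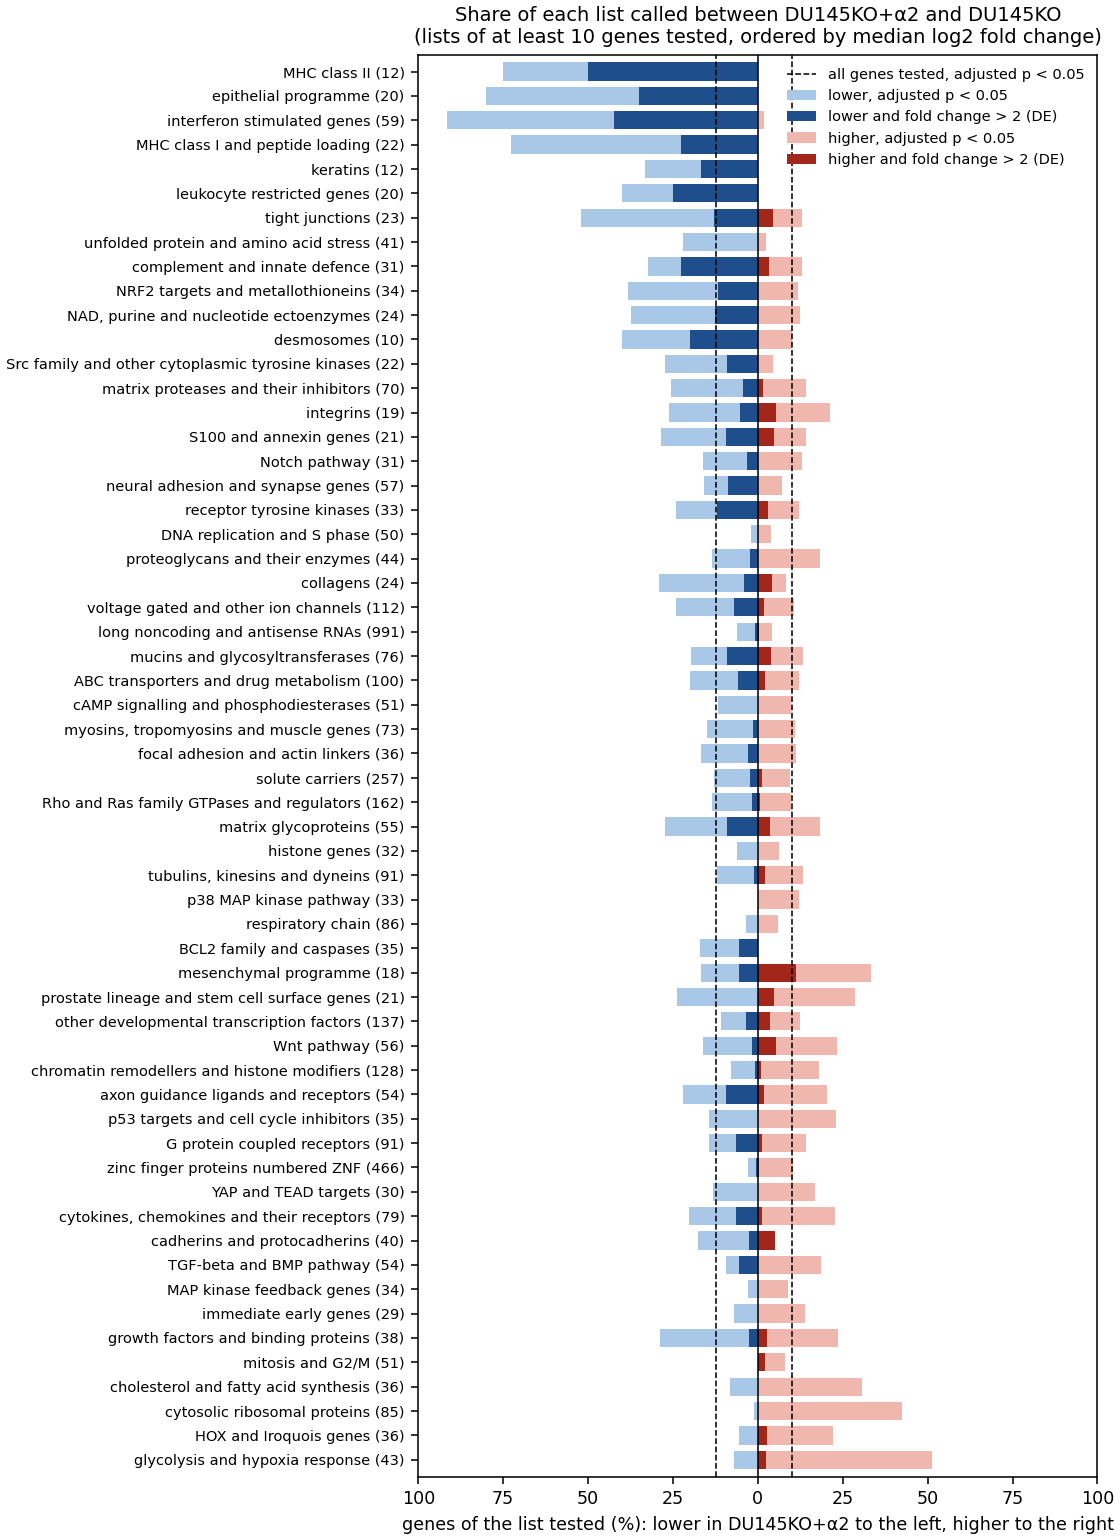
Share of the genes tested in each list that were lower (left) or higher (right) in DU145KO+α2 at an adjusted p below 0.05, with the DE part in dark colour. The number of genes tested is in brackets, lists are ordered by their median log2 fold change, and dashed lines mark the shares over all genes tested, 12.4% lower and 9.93% higher.

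Interferon stimulated genes were the list with the most lower DE genes. Of 59 tested, 25 (42.4%) were DE and lower, where 1.94% of all genes tested were, and none was DE and higher. At an adjusted p-value below 0.05 and any fold change, 54 of the 59 (91.5%) were lower and 1, IFITM2, was higher. Over all genes tested these shares were 12.4% and 9.93%. The median log2 fold change was −0.82, against −0.003 for all genes. The median of the list was −0.21 for DU145KO+vector against DU145KO and −0.66 for DU145KO+α2 against DU145KO+vector, and these comparisons share samples. The 25 genes were APOL1, BST2, CMPK2, DDX60, DHX58, GBP1, GBP3, GBP4, IFI27, IFI44, IFI44L, IFI6, IFIH1, IFIT1, IFIT2, IFIT3, IFITM1, MX1, OAS1, OAS2, OASL, RTP4, SAMD9, SAMD9L and XAF1. The samples did not overlap for 23 of the 25, BST2 and IFI6 being the other two.

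The IFIT genes, which bind foreign RNA and block its translation, were lower in every DU145KO+α2 sample. IFIT3 was counted at 25.3, 15.03, 13.99 and 13.87 CPM in DU145KO+α2 and at 76.6, 32.4, 43.5 and 40.4 CPM in DU145KO. The highest DU145KO+α2 sample was below the lowest DU145KO sample, and the log2 fold change was −1.48, with a standard error of 0.09 (adjusted p = 3.90e-09, edgeR). IFIT2 was counted at 20.5, 16.5, 12.8 and 14.1 CPM in DU145KO+α2 and at 52.8, 32.5, 44.0 and 31.8 CPM in DU145KO (log2 fold change −1.33, standard error 0.10). DU145KO+vector was not lower for either, at 49.6 ± 13.96 CPM (SD, n = 4) for IFIT3 and 41.7 ± 11.1 CPM for IFIT2, and its log2 fold change against DU145KO was 0.07 and 0.04 (adjusted p = 0.675 and 0.806, edgeR).

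The sensors of viral RNA were lower as well. IFIH1, which encodes MDA5, was counted at 7.57, 8.34, 6.38 and 7.70 CPM in DU145KO+α2 and at 18.4, 13.2, 14.9 and 15.4 CPM in DU145KO (log2 fold change −1.04, standard error 0.11). DHX58, which encodes the related protein LGP2, was counted at 1.49, 1.25, 0.531 and 1.59 CPM in DU145KO+α2 and at 11.4, 4.15, 5.22 and 5.73 CPM in DU145KO (log2 fold change −2.39, standard error 0.22). All samples of DU145KO+α2 were below those of DU145KO for both, and IFIH1 was near the limit of 2-fold, with a log2 fold change of −0.97 without replicate 1 of DU145KO, −0.99 without its replicate 3, −0.98 without replicate 1 of DU145KO+α2 and −0.998 without replicate 3 of it. DU145KO+vector, at 12.3 ± 1.42 CPM for IFIH1 and 4.26 ± 1.25 CPM for DHX58, lay between the means of the other lines.

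SAMD9, an antiviral and growth restraining protein, fell most among the interferon stimulated genes that were above an average log2 CPM of 1. It was counted at 4.10, 3.20, 2.24 and 2.74 CPM in DU145KO+α2 and at 23.1, 13.3, 13.8 and 15.5 CPM in DU145KO. Its log2 fold change was −2.41, with a standard error of 0.13 (adjusted p = 5.32e-11, edgeR). APOL1, which lyses trypanosomes, was counted at 2.23, 2.85, 1.53 and 2.04 CPM in DU145KO+α2 and at 16.3, 8.91, 8.41 and 7.37 CPM in DU145KO (log2 fold change −2.20, standard error 0.17). In DU145KO+vector, SAMD9 was at 6.30 ± 2.30 CPM and APOL1 at 5.04 ± 1.35 CPM. CMPK2, a mitochondrial nucleotide kinase, was at or below 3 counts in all DU145KO+α2 samples, which against a floor of 3 counts per library is at least 3.38-fold lower.

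Replicate 1 of DU145KO had the highest level of all 25 genes within its line, while over all genes tested replicate 1 was the highest of that line for 27.3% of genes. Among the 34 interferon stimulated genes tested that were not DE it was highest for 28. IFI6, singled out after its values were seen, had a wide spread, with 149, 37.0, 60.9 and 147 CPM in DU145KO and 49.4, 27.8, 31.5 and 38.1 CPM in DU145KO+α2. Without replicate 1 of DU145KO, 23 genes of the list were DE and lower, and the median log2 fold change was −0.73 in place of −0.82.

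**Figure D3:**
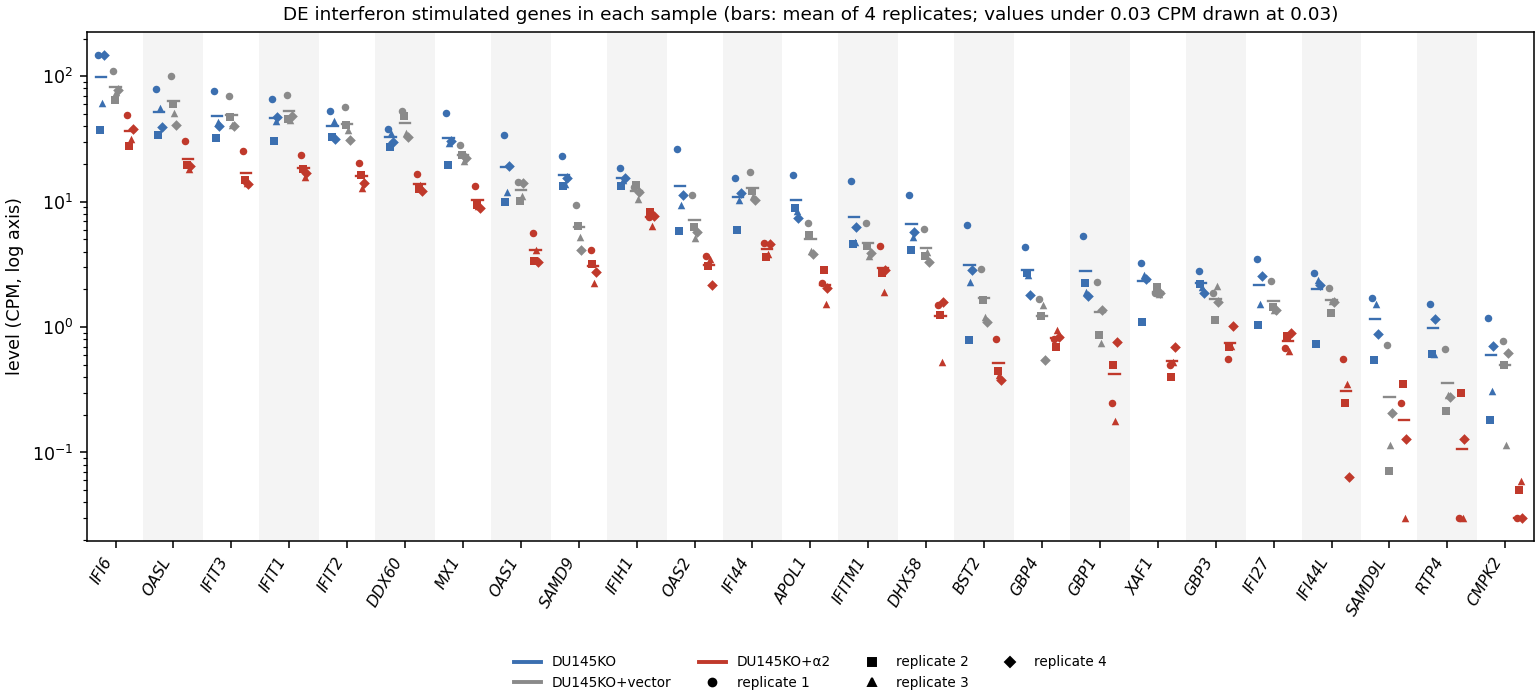
Level of the 25 lower DE interferon stimulated genes in each of the 12 samples, in CPM on a log axis, with symbols for the replicate, colours for the line and a bar at the mean of 4 replicates. DU145KO+α2 (red) has the lowest mean in each gene, replicate 1 of DU145KO (blue circles) is highest in its line, and DU145KO+vector (grey) lies near DU145KO for genes such as IFIT3 and further down for others such as SAMD9.

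The genes of the interferon pathway itself moved less. STAT2, a factor that carries the signal to the nucleus, had a log2 fold change of −0.10, with a standard error of 0.05 (adjusted p = 0.173, edgeR). Interferon ligands and receptors were looked up after the values of these genes had been seen. IFNAR1 and IFNAR2, the receptor of type I interferon, had log2 fold changes of −0.15 (standard error 0.05) and −0.003 (standard error 0.06), and IFNGR1 and IFNGR2, the receptor of interferon gamma, of 0.01 (standard error 0.08) and −0.07 (standard error 0.06). The kinases JAK1, JAK2 and TYK2 were at −0.26, −0.31 and 0.04. IFNA1, IFNG, IFNK and IFNL4 had no count in any of the 12 samples. IFNB1, the main type I ligand of non-immune cells, had 3, 0, 0 and 1 counts in DU145KO and 0 in every DU145KO+α2 sample, which is at or below the floor everywhere. IFNE was tested and was at 1.498 to 2.60 CPM in DU145KO+α2 and 0.860 to 2.22 CPM in DU145KO (log2 fold change 0.17, standard error 0.22).

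Interferons act on many of these genes through the interferon stimulated response element, whose core was searched here as GAAANNGAAA on both strands in the 250 bases before each gene's start. RefSeq promoters of GRCh38.p14 were at hand for 11569 of the genes tested, and 270 of them (2.33%) held the core. It was found in 26 of the 213 lower DE genes with a promoter (12.2%) and in 3 of 59 higher ones (5.08%). Of the 26 genes, 13 were on the interferon list, where 13 of 20 lower DE genes (65.0%) and 12 of 26 other tested genes (46.2%) held the core. The other 13 were among 193 lower DE genes with a promoter that were not on that list. They were CEACAM1, CFB, CLDN7, GPM6A, HLA-F, LRRC31, PDGFRB, PLA1A, PSMB10, TMEM140, TNFRSF1B, TRIM2 and VIPR1. A match is a description of the letters and does not show binding. The promoters of the neighbours IFIT3 and IFIT1 and of IFIH1 and SAMD9 are shown as lower DE members that hold the core, with the matches in capitals. IFIT1, next to IFIT3 and not within the rule for named genes, was picked after its values were seen (15.6 to 23.6 CPM in DU145KO+α2 and 30.3 to 66.0 CPM in DU145KO).
IFIT3, chr10:89327747-89327996, plus strand: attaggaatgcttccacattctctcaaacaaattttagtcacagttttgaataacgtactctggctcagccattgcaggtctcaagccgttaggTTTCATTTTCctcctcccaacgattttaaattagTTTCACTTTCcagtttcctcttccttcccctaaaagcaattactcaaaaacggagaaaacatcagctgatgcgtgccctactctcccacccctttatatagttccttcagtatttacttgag
IFIT1, chr10:89392373-89392622, plus strand: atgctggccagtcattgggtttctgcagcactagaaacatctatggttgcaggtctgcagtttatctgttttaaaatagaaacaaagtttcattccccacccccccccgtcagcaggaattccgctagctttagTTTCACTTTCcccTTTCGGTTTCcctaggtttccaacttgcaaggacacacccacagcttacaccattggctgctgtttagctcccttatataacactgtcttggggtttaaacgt
IFIH1, chr2:162318685-162318934, minus strand: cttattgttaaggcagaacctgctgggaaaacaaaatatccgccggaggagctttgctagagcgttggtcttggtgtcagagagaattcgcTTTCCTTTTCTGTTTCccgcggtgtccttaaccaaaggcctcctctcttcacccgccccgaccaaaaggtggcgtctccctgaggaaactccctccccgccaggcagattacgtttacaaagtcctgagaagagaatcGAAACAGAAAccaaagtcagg
SAMD9, chr7:93117980-93118229, minus strand: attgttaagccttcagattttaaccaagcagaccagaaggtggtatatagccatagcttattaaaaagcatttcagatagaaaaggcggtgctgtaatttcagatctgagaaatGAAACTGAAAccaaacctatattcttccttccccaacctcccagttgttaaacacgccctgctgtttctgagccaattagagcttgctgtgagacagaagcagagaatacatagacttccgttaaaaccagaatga
IFIT3 and IFIT1 hold 2 matches each, all in the TTTC orientation. IFIH1 holds 3, of which the first 2 overlap and are printed as a single run, and SAMD9 holds 1.

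MHC class II genes were lower as a group. Of 12 tested, 6 (50%) were DE and lower and none higher, 9 were lower at any fold change, and the fitted change was below 0 for all 12. Peptides are shown by pairs of an α and a β chain, helped by CD74, and CIITA is the factor that turns these genes on. HLA-DRA, the α chain of HLA-DR, was counted at 2.23, 1.798, 1.004 and 1.46 CPM in DU145KO+α2 and at 23.4, 13.7, 12.7 and 13.3 CPM in DU145KO. It fell by 3.27 on the log2 scale (standard error 0.16, adjusted p = 7.66e-12, edgeR). HLA-DPA1, the α chain of HLA-DP, was counted at 0.621, 1.05, 0.531 and 0.255 CPM in DU145KO+α2 and at 8.20, 6.90, 5.47 and 5.85 CPM in DU145KO (log2 fold change −3.40, standard error 0.23). The lowest DU145KO sample was above the highest DU145KO+α2 sample for both chains. Replicate 1 of DU145KO was the highest of its line for 10 of the 12 genes (83.3%, against 27.3% of all genes tested), and without it 6 genes were DE and lower and the median was −0.90.

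CD74, the invariant chain, was at 34.7, 38.6, 23.3 and 24.0 CPM in DU145KO+α2 and 99.2, 72.5, 74.2 and 76.3 CPM in DU145KO (log2 fold change −1.43, standard error 0.11). CIITA was counted at 0.310, 0.849, 1.12 and 1.02 CPM in DU145KO+α2 and at 2.91, 2.32, 2.46 and 2.46 CPM in DU145KO (log2 fold change −1.61, standard error 0.28). HLA-DOB and HLA-DPB1 were the remaining DE members. The β chain HLA-DRB1 was not DE, at 12.1 to 23.2 CPM in DU145KO+α2 and 15.5 to 24.2 CPM in DU145KO (log2 fold change −0.21, standard error 0.09). HLA genes are highly similar, and uniquely aligned reads may have been split between them. DU145KO+vector held HLA-DRA at 1.60 ± 0.855 CPM and HLA-DPA1 at 0.798 ± 0.358 CPM. Its own log2 fold change against DU145KO was −3.30 for HLA-DRA, and that of DU145KO+α2 against DU145KO+vector was 0.03 (adjusted p = 0.934). Over the 12 genes the median log2 fold change was −0.96 for DU145KO+α2 against DU145KO, −0.90 for DU145KO+vector against DU145KO and 0.06 for DU145KO+α2 against DU145KO+vector, and these comparisons share samples.

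MHC class I genes and the genes that cut and load their peptides were lower to a smaller degree. Of 22 tested, 5 (22.7%) were DE and lower, 16 (72.7%) were lower at an adjusted p-value below 0.05 and none was higher. Of all genes tested, 1.94% were DE and lower and 12.4% lower at that threshold. ERAP1 and ERAP2 trim peptides in the endoplasmic reticulum. ERAP1 was counted at 45.9, 42.5, 42.5 and 40.5 CPM in DU145KO+α2 and at 109.9, 103, 107 and 81.4 CPM in DU145KO (log2 fold change −1.22, standard error 0.06, adjusted p = 1.88e-11, edgeR). ERAP2 was counted at 43.7, 34.3, 29.7 and 36.4 CPM in DU145KO+α2 and at 123, 95.7, 79.0 and 81.4 CPM in DU145KO (log2 fold change −1.39, standard error 0.07). Every DU145KO sample was above every DU145KO+α2 sample. The annotated span of ERAP1 (chr5:96760813-96935854, GRCh38) contains that of ERAP2 (chr5:96875984-96919716), and the sources used here do not say whether the counting used the strand, so their reads may be shared in part.

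PSMB9, a subunit of the immunoproteasome, was counted at 3.17, 4.09, 2.95 and 3.82 CPM in DU145KO+α2 and at 17.0, 9.52, 10.5 and 8.43 CPM in DU145KO (log2 fold change −1.66, standard error 0.18). PSMB10, a further immunoproteasome subunit, and HLA-F, a class I chain, were the other DE members. Other chains were lower with fold changes below 2. HLA-B was counted at 399, 391, 359 and 298 CPM in DU145KO+α2 and at 907, 648, 695 and 588 CPM in DU145KO (log2 fold change −0.96, standard error 0.07, adjusted p = 2.38e-09). B2M, the light chain, was counted at 2077, 1523, 1695 and 1509 CPM in DU145KO+α2 and at 2649, 2290.0, 2483 and 2095 CPM in DU145KO (log2 fold change −0.49, standard error 0.06). Neither overlapped between the lines. Replicate 1 of DU145KO was the highest of its line for 15 of the 22 genes (68.2%) and for each of the 5 DE ones, and without it 4 were DE and lower and the median was −0.58. The median of the list was −0.68 for DU145KO+α2 against DU145KO, −0.24 for DU145KO+vector against DU145KO and −0.45 for DU145KO+α2 against DU145KO+vector.

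The epithelial programme was lower in DU145KO+α2. Of 20 genes tested, 7 (35.0%) were DE and lower, 16 (80.0%) were lower at an adjusted p-value below 0.05 and none was higher. Of all genes tested, 1.94% were DE and lower and 12.4% lower at that threshold. The fitted change was below 0 for all 20. ESRP1, a splicing factor that sets epithelial isoforms, was counted at 0.558, 0.400, 0.295 and 0.382 CPM in DU145KO+α2 and at 4.43, 5.86, 6.20 and 4.33 CPM in DU145KO. It fell by 3.65 on the log2 scale (standard error 0.24, adjusted p = 1.04e-09, edgeR). AP1M2, an adaptor for sorting to the basolateral surface, was counted at 0.434, 0.250, 0.236 and 0.127 CPM in DU145KO+α2 and at 5.09, 3.17, 2.21 and 2.46 CPM in DU145KO (log2 fold change −3.59, standard error 0.28). Both were at low levels and had no overlap between the lines.

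Surface proteins of the programme were lower too. ST14, the membrane protease matriptase, was counted at 6.95, 5.24, 3.42 and 4.58 CPM in DU145KO+α2 and at 40.4, 29.6, 27.1 and 41.6 CPM in DU145KO (log2 fold change −2.77, standard error 0.17). Its inhibitor SPINT1 was counted at 32.9, 29.0, 20.8 and 23.5 CPM in DU145KO+α2 and at 77.5, 66.5, 63.3 and 63.2 CPM in DU145KO (log2 fold change −1.36, standard error 0.07). The protease and its inhibitor were thus lower together, while the second inhibitor SPINT2 had a log2 fold change of −0.32.

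EPCAM, an adhesion molecule of epithelial cells, was counted at 88.3, 71.6, 57.3 and 71.2 CPM in DU145KO+α2 and at 154, 139.6, 156 and 186 CPM in DU145KO (log2 fold change −1.14, standard error 0.11). CDH1, which encodes E-cadherin, was counted at 74.7, 72.7, 51.0 and 46.8 CPM in DU145KO+α2 and at 133, 127, 118 and 161 CPM in DU145KO (log2 fold change −1.14, standard error 0.19, adjusted p = 0.0065). The fold change of CDH1 fell just under 2 without replicate 4 of DU145KO (−0.998 on the log2 scale) or of DU145KO+α2 (−0.98). OVOL2, a repressor of mesenchymal genes, was the remaining DE member. The empty vector line was at 99.8 ± 13.4 CPM for CDH1, 89.4 ± 5.16 CPM for EPCAM, 11.8 ± 2.05 CPM for ST14 and 0.649 ± 0.186 CPM for ESRP1. The median of the 20 genes was −0.92 for DU145KO+α2 against DU145KO, −0.37 for DU145KO+vector against DU145KO and −0.32 for DU145KO+α2 against DU145KO+vector.

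**Figure D4:**
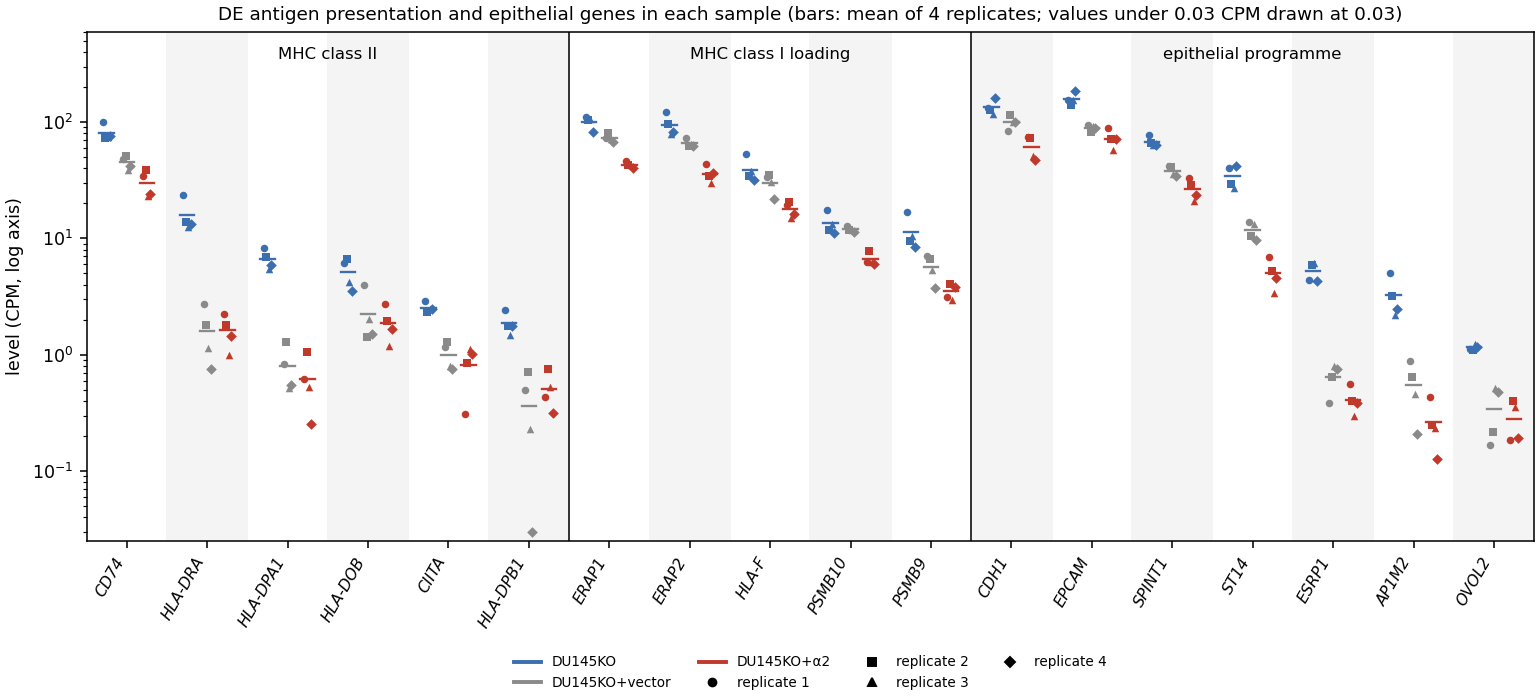
Level of the DE genes of MHC class II, MHC class I peptide loading and the epithelial programme in each of the 12 samples, in CPM on a log axis, with symbols for the replicate, colours for the line and a bar at the mean of 4 replicates. The DU145KO+α2 samples (red) lie below the DU145KO samples (blue) in all 18 genes, and DU145KO+vector (grey) is near DU145KO+α2 for HLA-DRA, HLA-DPA1 and ESRP1.

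Mesenchymal genes moved in both directions. Of 18 genes tested, LOX and ZEB2 (11.1%) were DE and higher and PDGFRB (5.56%) was DE and lower. Of all genes tested, 0.618% were DE and higher and 1.94% DE and lower. At an adjusted p-value below 0.05 and any fold change, 6 (33.3%) were higher and 3 (16.7%) lower. Over all genes tested these shares were 9.93% and 12.4%. The median log2 fold change of the list was 0.02. ZEB2, a repressor of E-cadherin, was counted at 0.807, 0.749, 1.48 and 1.91 CPM in DU145KO+α2 and at 0.860, 0.488, 0.368 and 0.644 CPM in DU145KO, so the samples overlapped. With replicate 2, 3 or 4 of DU145KO or replicate 3 or 4 of DU145KO+α2 left out, the adjusted p of ZEB2 was 0.0565 to 0.136, and it was 0.122 without the replicate block and 0.0639 by DESeq2. VIM, the intermediate filament of mesenchymal cells, had a log2 fold change of 0.21, with a standard error of 0.05 (adjusted p = 0.00638, edgeR).

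Cell junction genes were in part lower. Of 23 tight junction genes tested, CLDN7, MARVELD3 and TJP3 (13.0%) were DE and lower and JAM3 (4.35%) was DE and higher. Of all genes tested, 1.94% were DE and lower and 0.618% DE and higher. At an adjusted p-value below 0.05, 12 of the 23 (52.2%) were lower and 3 (13.0%) higher, beside 12.4% and 9.93% of all genes tested. CLDN7, a claudin, was counted at 11.3, 9.99, 8.03 and 7.70 CPM in DU145KO+α2 and at 29.1, 26.2, 28.7 and 25.8 CPM in DU145KO (log2 fold change −1.57, standard error 0.10). Of 10 desmosome genes, DSP and PKP1 were DE and lower. DSP, which ties desmosomes to keratin filaments, was counted at 49.0, 72.4, 66.5 and 51.6 CPM in DU145KO+α2 and at 161, 186, 150.1 and 152 CPM in DU145KO (log2 fold change −1.45, standard error 0.08). The desmosomal cadherin DSG2 was not DE (log2 fold change −0.15, standard error 0.06). DU145KO+vector held DSP at 51.4 ± 9.43 CPM. The keratins KRT8 and KRT18, which fill the cells, had log2 fold changes of −0.36 and −0.42. Of 12 keratin genes, KRT3 and KRT81 (16.7%) were DE and lower.

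Several genes usually found in leukocytes, or in innate defence at epithelial surfaces, were also lower. Of 20 leukocyte restricted genes that were tested, 5 (25%) were DE and lower, among them BST1, ITGB2, LCP1 and SYK, and none higher. Of all genes tested, 1.94% were DE and lower and 0.618% DE and higher. PTPRC and CD3E had no count. BST1, an enzyme that cleaves NAD, was counted at 1.24, 0.549, 0.531 and 0.573 CPM in DU145KO+α2 and at 7.27, 7.45, 6.70 and 6.44 CPM in DU145KO (log2 fold change −3.28, standard error 0.20). The tyrosine kinase SYK was counted at 1.68, 1.798, 1.06 and 1.65 CPM in DU145KO+α2 and at 7.41, 8.61, 7.92 and 6.90 CPM in DU145KO (log2 fold change −2.32, standard error 0.16). DU145KO+vector was at 10.3 ± 0.211 CPM for BST1, above DU145KO, and at 7.01 ± 0.847 CPM for SYK, among the DU145KO samples.

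Of 31 genes of complement and innate defence, BPIFB1, CFB, CFI, LCN2, S100A9, SLPI and TLR3 were DE and lower (22.6%), and SCARA5 was DE and higher (3.23%). Of all genes tested, 1.94% were DE and lower and 0.618% DE and higher. SLPI, an inhibitor of neutrophil proteases, was counted at 6.33, 4.49, 5.55 and 4.71 CPM in DU145KO+α2 and at 31.9, 27.1, 22.9 and 12.8 CPM in DU145KO (log2 fold change −2.14, standard error 0.17). CFI, a protease that cuts complement C3b, was counted at 8.38, 4.69, 4.13 and 7.44 CPM in DU145KO+α2 and at 18.5, 13.6, 9.40 and 21.2 CPM in DU145KO (log2 fold change −1.35, standard error 0.15). CASP4, the caspase that senses bacterial lipopolysaccharide, was counted at 13.5, 9.34, 8.56 and 8.21 CPM in DU145KO+α2 and at 35.1, 25.8, 26.4 and 21.5 CPM in DU145KO (log2 fold change −1.46, standard error 0.09). Cytokine genes moved in both directions. Of 79 tested, CXCL5, IL20RB, LTB, TNFRSF1B and TNFSF15 (6.33%) were DE and lower, CXCL6 (1.27%) was DE and higher, and the median log2 fold change was 0.08. At an adjusted p-value below 0.05 and any fold change, 16 (20.3%) were lower and 18 (22.8%) higher. Over all genes tested these shares were 12.4% and 9.93%.

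Mucins were among the remaining lower genes. MUC1, a membrane mucin, was counted at 73.2, 70.5, 62.5 and 103 CPM in DU145KO+α2 and at 623, 552, 283 and 215 CPM in DU145KO. The lines did not overlap, and MUC1 fell by 2.32 on the log2 scale (standard error 0.35, adjusted p = 0.00477, edgeR), although replicates of DU145KO differed more than 2-fold among themselves. Fitted on the 8 samples alone, its adjusted p was 0.065. MUC16, which carries the CA125 antigen, was counted at 1.92, 1.60, 2.24 and 2.099 CPM in DU145KO+α2 and at 21.9, 10.3, 13.8 and 10.5 CPM in DU145KO (log2 fold change −2.81, standard error 0.22). DU145KO+vector was at 71.6 ± 22.5 CPM for MUC1 and 4.72 ± 2.15 CPM for MUC16. Of 76 genes of mucins and glycosyltransferases, 7 (9.21%) were DE and lower and 3 (3.95%) DE and higher, where 1.94% and 0.618% of all genes tested were.

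Genes of the matrix and its proteases were among the lower ones as well. NPNT, a basement membrane ligand of α8β1 integrin, was counted at 2.11, 3.05, 0.945 and 1.78 CPM in DU145KO+α2 and at 17.2, 9.77, 13.5 and 16.6 CPM in DU145KO (log2 fold change −2.83, standard error 0.38). SERPINB5, the serpin maspin, was counted at 0.745, 0.999, 0.413 and 0.445 CPM in DU145KO+α2 and at 6.08, 4.09, 5.41 and 2.34 CPM in DU145KO (log2 fold change −2.74, standard error 0.27). PAPPA, a protease that cuts binding proteins of insulin-like growth factors, was counted at 0.869, 1.05, 0.531 and 1.02 CPM in DU145KO+α2 and at 6.35, 5.25, 5.65 and 4.27 CPM in DU145KO (log2 fold change −2.63, standard error 0.24). The lines did not overlap for any of the 3. Of 55 matrix glycoprotein genes tested 5 (9.09%) were DE and lower and 2 (3.64%) higher. Of 70 genes of matrix proteases and inhibitors 3 (4.29%) were DE and lower and 1 (1.43%), MMP1, was DE and higher, beside 1.94% and 0.618% of all genes tested.

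Receptors, channels and enzymes made up further lower genes. MET, the receptor of hepatocyte growth factor, was counted at 36.7, 45.2, 40.3 and 46.4 CPM in DU145KO+α2 and at 70.7, 88.9, 115 and 85.7 CPM in DU145KO (log2 fold change −1.08, standard error 0.11). The empty vector line was at 89.0 ± 20.3 CPM, near DU145KO. The change of MET was under 2-fold without replicate 3 of DU145KO (−0.98 on the log2 scale) or of DU145KO+α2 (−0.96). SCNN1A, a subunit of the epithelial sodium channel, was counted at 25.5, 21.0, 21.7 and 15.7 CPM in DU145KO+α2 and at 87.1, 59.6, 76.7 and 65.9 CPM in DU145KO (log2 fold change −1.79, standard error 0.08). AKR1B10, an aldo-keto reductase and target of NRF2, was counted at 8.88, 3.69, 8.56 and 5.28 CPM in DU145KO+α2 and at 33.5, 24.2, 30.4 and 19.6 CPM in DU145KO (log2 fold change −2.06, standard error 0.19). Of 112 ion channel genes 8 (7.14%) were DE and lower and 2 (1.79%) higher, where 1.94% and 0.618% of all genes tested were. Of 33 receptor tyrosine kinases 4 (12.1%) were lower and 1 (3.03%), KIT, was higher. Of 34 NRF2 targets and metallothioneins AKR1B10, AKR1C2, MT1A and MT1M (11.8%) were lower. GPX3, a secreted glutathione peroxidase named after its values were seen, was counted at 67.3, 38.7, 39.9 and 47.0 CPM in DU145KO+α2 and at 178, 80.3, 161 and 132 CPM in DU145KO (log2 fold change −1.51, standard error 0.27).

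By the rule for named genes, 15 lower genes with the largest change were taken among those without overlap whose average log2 CPM was 1 or more, and 3 of them belong to none of the groups above. FANCF, a gene of DNA crosslink repair, was counted at 1.99, 1.75, 0.945 and 2.04 CPM in DU145KO+α2 and at 11.2, 10.4, 9.71 and 8.66 CPM in DU145KO (log2 fold change −2.58, standard error 0.18). CHD5, a chromatin remodeller, was counted at 0.558, 0.549, 0.531 and 0.827 CPM in DU145KO+α2 and at 4.36, 4.46, 4.42 and 4.86 CPM in DU145KO (log2 fold change −2.87, standard error 0.21). C1orf116 was counted at 2.17, 4.29, 1.53 and 1.97 CPM in DU145KO+α2 and at 13.95, 18.6, 10.9 and 22.5 CPM in DU145KO (log2 fold change −2.71, standard error 0.31). The empty vector line was at 3.45 ± 1.02 CPM for FANCF, below DU145KO, and at 6.33 ± 1.08 CPM for CHD5 and 18.1 ± 5.31 CPM for C1orf116, not below it.

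Higher genes were fewer. MMP1, a collagenase that cuts fibrillar collagen, came after ITGA2. It was counted at 45.2, 41.5, 40.1 and 47.0 CPM in DU145KO+α2 and at 3.04, 4.76, 6.51 and 6.20 CPM in DU145KO (log2 fold change 3.08, standard error 0.18, adjusted p = 9.39e-07, edgeR). CDH5, the cadherin of endothelial cells, was counted at 10.6, 8.99, 12.2 and 7.83 CPM in DU145KO+α2 and at 1.39, 1.16, 1.29 and 1.23 CPM in DU145KO (log2 fold change 2.95, standard error 0.18). Other endothelial markers did not follow it, since VWF, TEK, ERG and TIE1 were at or below 3 counts in all 8 samples and the sum of 7 endothelial markers was 2.75 to 4.03 CPM in DU145KO+α2 and 2.87 to 3.86 CPM in DU145KO. SCARA5, a scavenger receptor for ferritin, was counted at 14.7, 18.4, 15.2 and 15.8 CPM in DU145KO+α2 and at 5.02, 2.32, 2.95 and 2.22 CPM in DU145KO (log2 fold change 2.40, standard error 0.25). ZNF853, a zinc finger gene, was counted at 6.95, 7.49, 6.79 and 4.90 CPM in DU145KO+α2 and at 1.72, 0.916, 1.41 and 0.936 CPM in DU145KO (log2 fold change 2.40, standard error 0.19). The samples of the lines did not overlap for any of the 4, nor for DQX1 and TMEM200C, which were at 3.41 to 5.79 and 3.31 to 4.25 CPM in DU145KO+α2 and at 1.29 to 1.66 and 1.23 to 1.53 CPM in DU145KO.

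Secreted regulators of growth factor and Wnt signalling were among the higher genes. IGFBP2, which binds insulin-like growth factors, was counted at 85.8, 54.0, 84.1 and 53.6 CPM in DU145KO+α2 and at 33.4, 15.3, 28.1 and 26.1 CPM in DU145KO (log2 fold change 1.44, standard error 0.21). SFRP1, a secreted Wnt inhibitor, was counted at 130.0, 115.5, 142 and 139.8 CPM in DU145KO+α2 and at 64.5, 56.1, 47.8 and 69.9 CPM in DU145KO (log2 fold change 1.16, standard error 0.09). DKK3, a member of the Dickkopf family, was counted at 16.1, 11.5, 11.6 and 11.01 CPM in DU145KO+α2 and at 5.55, 4.70, 6.14 and 6.20 CPM in DU145KO (log2 fold change 1.14, standard error 0.12). Of 56 Wnt pathway genes tested, SFRP1, DKK3 and WNT5B (5.36%) were DE and higher. RNF43 (1.79%), which encodes a ligase that removes Wnt receptors, was DE and lower. Of all genes tested, 0.618% were DE and higher and 1.94% DE and lower. At an adjusted p-value below 0.05, 13 Wnt pathway genes (23.2%) were higher and 9 (16.1%) lower, beside 9.93% and 12.4% of all genes tested. The median log2 fold change of the pathway was 0.04.

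KIT, the receptor of stem cell factor, was counted at 59.8, 49.5, 55.5 and 45.0 CPM in DU145KO+α2 and at 32.5, 25.5, 16.7 and 31.6 CPM in DU145KO (log2 fold change 1.02, standard error 0.21). COL21A1, a fibril associated collagen, was counted at 41.3, 34.2, 37.1 and 58.0 CPM in DU145KO+α2 and at 20.2, 15.8, 10.2 and 28.5 CPM in DU145KO (log2 fold change 1.23, standard error 0.15). KIF26B, a kinesin family member, was counted at 5.46, 6.84, 6.20 and 8.02 CPM in DU145KO+α2 and at 2.58, 2.81, 1.60 and 2.75 CPM in DU145KO (log2 fold change 1.44, standard error 0.17). All 3 were higher in every DU145KO+α2 sample. KIT lost its call without replicate 1 of DU145KO (adjusted p = 0.0512, edgeR), and its log2 fold change was 0.88 without replicate 3 of DU145KO, 0.78 without replicate 3 of DU145KO+α2 and 0.98 without the replicate block. The adjusted p of COL21A1 was 0.0581 without the block (edgeR). The pseudogene FER1L4 was counted at 47.0, 52.5, 96.4 and 80.5 CPM in DU145KO+α2 and at 26.1, 29.4, 18.1 and 24.1 CPM in DU145KO (log2 fold change 1.46, standard error 0.28), with an adjusted p of 0.0924 when the 8 samples were fitted alone. KYNU, an enzyme of tryptophan breakdown named after its values were seen, was counted at 153, 121, 156 and 141 CPM in DU145KO+α2 and at 72.6, 73.3, 62.2 and 63.3 CPM in DU145KO (log2 fold change 1.07, standard error 0.12). Among 137 developmental transcription factors, FOXC1, FOXL1, SOX17, SOX5 and TCF24 were DE and higher and ETV7, FOXJ1, HNF4G, MSX1 and PAX6 DE and lower, 3.65% in each direction, where 0.618% of all genes tested were DE and higher and 1.94% DE and lower.

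The level of the higher genes in the empty vector line differed from gene to gene. DU145KO+vector was at 0.153 ± 0.114 CPM (SD, n = 4) for CDH5, 9.10 ± 5.69 CPM for IGFBP2 and 11.9 ± 4.28 CPM for KIT, below DU145KO. It was at 8.24 ± 1.24 CPM for MMP1, 73.9 ± 9.87 CPM for SFRP1 and 19.9 ± 7.65 CPM for COL21A1, and at 10.5 ± 1.91 CPM for DKK3 it was nearer to DU145KO+α2.

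**Figure D5:**
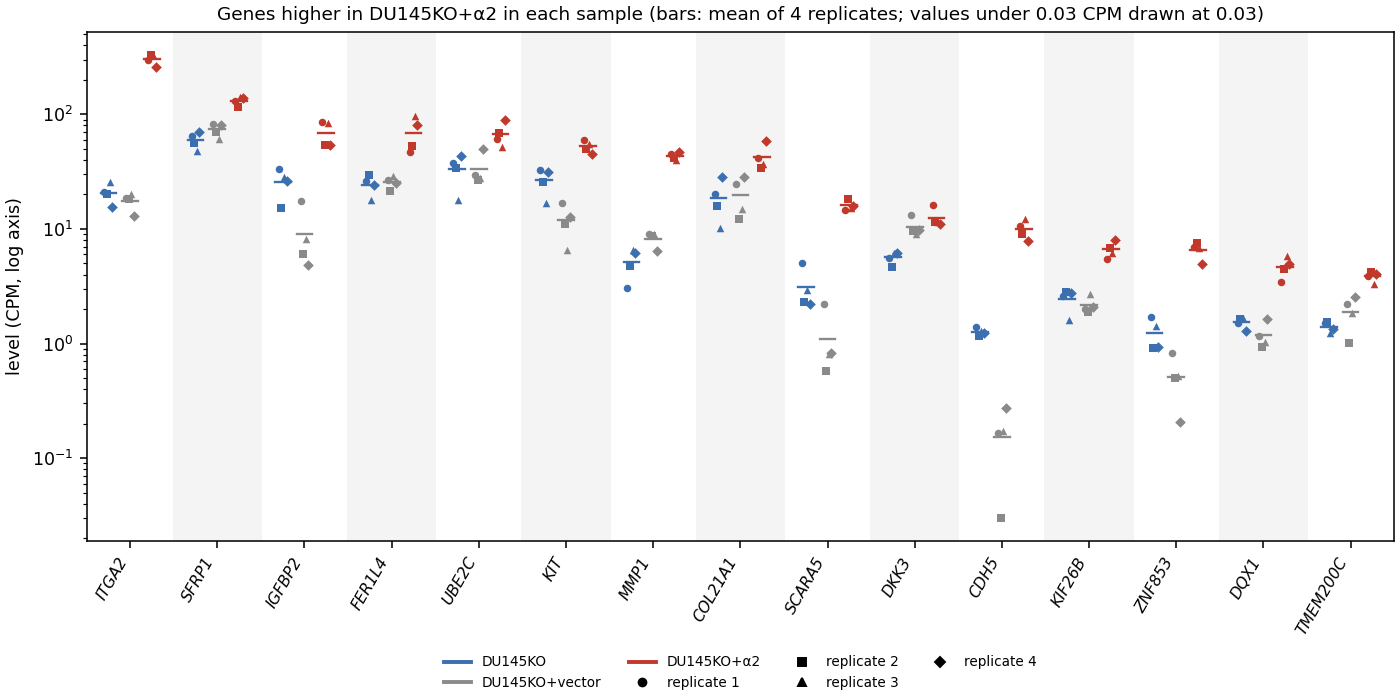
Level of 15 genes higher in DU145KO+α2 than in DU145KO in each of the 12 samples, in CPM on a log axis, with symbols for the replicate, colours for the line and a bar at the mean of 4 replicates. The DU145KO+α2 samples (red) lie above all DU145KO samples (blue), and the mean of DU145KO+vector (grey) is below that of DU145KO for genes such as CDH5, IGFBP2, KIT, SCARA5 and ZNF853.

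Glycolysis and hypoxia response genes were higher by small fold changes. Of 43 tested, 22 (51.2%) were higher and 3 lower at an adjusted p-value below 0.05, where 9.93% and 12.4% of all genes were, but LOX alone was DE. GAPDH was counted at 1797, 1865, 1707 and 2476 CPM in DU145KO+α2 and at 1663, 1438, 1168 and 1522 CPM in DU145KO (log2 fold change 0.43, standard error 0.07, adjusted p = 0.000144, edgeR), with no overlap. ENO1 and PKM had log2 fold changes of 0.25 and 0.30. Cytosolic ribosomal protein genes were likewise higher by small amounts, 36 of 85 (42.4%) at that threshold with none DE and a median log2 fold change of 0.15. Of 36 genes of cholesterol and fatty acid synthesis 11 were higher and 3 lower. Chaperones and other genes of the unfolded protein response went the other way, with 9 of 41 lower and 1 higher, among them HSPA5 with a log2 fold change of −0.25 (standard error 0.06).

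Of 51 genes of mitosis, UBE2C (1.96%) was DE and higher, where 0.618% of all genes tested were. At an adjusted p-value below 0.05, 4 (7.84%) were higher and none lower, beside 9.93% and 12.4% of all genes tested. The median log2 fold change was 0.11, which turned to −0.02 without replicate 2 of DU145KO+α2. UBE2C, which loads ubiquitin for the anaphase promoting complex, was counted at 61.1, 69.2, 52.3 and 89.5 CPM in DU145KO+α2 and at 37.6, 34.3, 17.9 and 42.9 CPM in DU145KO (log2 fold change 1.06, standard error 0.15), and at 0.91 without replicate 3 of DU145KO it was no longer DE. TOP2A was not DE, at a log2 fold change of 0.15 (standard error 0.16). None of 50 DNA replication genes was DE, and MCM3, MCM4 and MCM7 were at −0.11, −0.14 and 0.11 with standard errors of 0.13, 0.14 and 0.08. None of 33 genes of the p38 MAP kinase pathway, 29 immediate early genes, 34 feedback genes of MAP kinase signalling, 30 YAP and TEAD targets, 86 respiratory chain genes or 32 histone genes was DE, where 2.56% of all genes tested were, so that counts of 0 in lists of this size are near the background. At an adjusted p-value below 0.05, none of the p38 genes was lower and 4 (12.1%) were higher. By the same threshold, 4 YAP and TEAD targets (13.3%) were lower and 5 (16.7%) higher. Of the immediate early genes 2 (6.9%) were lower and 4 (13.8%) higher, and of the feedback genes 1 (2.94%) was lower and 3 (8.82%) higher. Of the respiratory chain genes 3 (3.49%) were lower and 5 (5.81%) higher, and of the histone genes 2 (6.25%) were lower and 2 (6.25%) higher. The shares over all genes tested were 12.4% lower and 9.93% higher. The medians of these lists were between −0.002 and 0.10.

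Some genes were above 3 counts in a single line of the 2. Above 3 counts in each DU145KO sample and at or below 3 in each DU145KO+α2 sample were 36 genes, of which 8 were DE and 28 had too few counts for the test. SDC2, a syndecan, had 20, 18, 33 and 13 counts in DU145KO and 2, 0, 0 and 0 in DU145KO+α2, which is at least 7.40-fold lower. CACNA2D1, a calcium channel subunit, had 24, 15, 18 and 18 counts against 0, 1, 0 and 0, at least 6.62-fold lower. HOPX, a homeodomain protein without DNA binding, had 33, 34, 18 and 18 counts against 2, 3, 0 and 0, at least 9.11-fold lower, and IRF8, a factor of interferon responses in myeloid cells, had 23, 11, 22 and 19 counts against 2 in every sample, at least 6.61-fold lower. In the other direction there were 5 genes, all with too few counts for the test.

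The DE genes were spread over the chromosomes, with a few neighbours. Among 14656 genes with a position, 31 lower DE genes stood in 15 runs of neighbouring lower genes and the higher ones in 2 runs. The longest run held IFIT2, IFIT3 and IFIT1 (chr10:89302046-89406487, GRCh38). Pairs of list members were IFI44L and IFI44, GBP3 and GBP1, SAMD9 and SAMD9L, HLA-DPA1 and HLA-DPB1, and MT1M and MT1A. ITGB2 stood next to its antisense gene ITGB2-AS1, which was lower too, and without strand their reads cannot be told apart. Chromosome 4 had the highest share of lower DE genes, 4.09% of 513 genes, and the median log2 fold change of a numbered chromosome was between −0.15 (chromosomes 5 and 9) and 0.09 (chromosome 14).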

How the data were processed

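RNA of spheroids of 3 lines, with 4 biological replicates each, was sequenced from stranded mRNA libraries. The deposited counts were made by the authors from uniquely aligned single-end reads, with bcl2fastq 1.8.4, TopHat 2.1.0, hg38 and Subread 1.5.0 per the methods and the submitters' processing notes, and whether strand was used in counting is not given in the sources used here. The authors' RPKM values, scaled by TMM and deposited without a log, were used only for levels per gene length.

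The counts of all 12 samples were fitted in edgeR 4.0.16 (R 4.3.3), with TMM factors, the line and the replicate number as a block, genes kept by filterByExpr at a minimum count of 10, robust quasi-likelihood F-tests and Benjamini-Hochberg adjustment over the 14732 genes. The standard error is the size of the log2 fold change divided by the square root of F. The p-values measure the spread between these samples. Deviations from the line means correlated at 0.135 to 0.458 between samples of the same number, so the numbers were taken to pair the samples. The average between different numbers was −0.12. It largely follows from the same-number values, because deviations from a mean cancel out within a line, and adds no evidence of pairing. No pair of replicates agreed within sampling noise.

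The genes and lists were chosen with earlier results of these data known, and lists are described by counts and medians without a test. Named are ITGA2, the 15 lowest and 10 highest DE genes without overlap at an average log2 CPM of at least 1, up to 6 DE and 3 other genes of each list, and up to 5 genes in each direction found above 3 counts in a single line. Others are said to be chosen after their values were seen. Promoters were RefSeq sequences of GRCh38.p14 matched by Entrez gene identifier. DESeq2 1.42.0, limma 3.58.1, other scalings, filters and thresholds, and leaving out each sample were alternatives. The steps were tested on simulated data. Some genes of the table are not reported here.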

Additional observations from a re-analysis of the deposited data

Results flagged for a closer look

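Among 128 sets of 4 replicates of the named genes and totals, 6 held a sample whose gap to the nearest other, as a share of the range, passed Dixon's limit for 4 values, and chance would give 6.4. In replicate 1 of DU145KO, HLA-DRA stood apart at 23.4 CPM against 12.65 to 13.7 CPM (gap 0.899) and CD74 at 99.2 CPM against 72.5 to 76.3 CPM (gap 0.857). In replicate 1 of DU145KO+α2 it was IFIT3, at 25.3 CPM against 13.87 to 15.03 CPM (gap 0.899), BST1, at 1.24 CPM against 0.531 to 0.573 CPM (gap 0.942), and DKK3, at 16.1 CPM against 11.01 to 11.6 CPM (gap 0.890). In replicate 4 of DU145KO+α2 it was CHD5, at 0.827 CPM against 0.531 to 0.559 CPM (gap 0.908). With each sample left out in turn, the log2 fold change was −3.40 to −3.17 for HLA-DRA, −1.58 to −1.36 for CD74, −1.61 to −1.41 for IFIT3, −3.63 to −3.13 for BST1, 1.01 to 1.23 for DKK3 and −3.02 to −2.74 for CHD5, and all 6 stayed DE.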

How the results depend on the processing

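The count of 377 DE genes, 286 lower and 91 higher (75.9% lower), was 3286, 1823 and 1463 (55.5% lower) with the adjusted p alone and 200, 145 and 55 with at least 10 counts demanded in each of the 8 samples. Tested against a fold change of 1.5, 257 genes were called, 58 of them higher. Without the replicate block 309 were DE, 246 lower and 63 higher, and 307 of them were among the 377. With no filter, the 8 samples fitted alone, DESeq2 or voom as the test, no limit on the adjusted p, and scaling by library size or by DESeq2's size factors, the count was between 337 and 468. With each sample left out in turn, the total was 342 to 398, the lower genes 266 to 299, the higher ones 69 to 113 and the lower share 70.2 to 79.8%. The median of the mitosis list turned from 0.1145 to −0.02138 without replicate 2 of DU145KO+α2 and was 0.1975 without replicate 1 of DU145KO, and the cause was not tested. With a sample left out, PSMB10, ITGB2, LCP1, KRT3, KRT81, JAM3, LOX, MARVELD3, CXCL6, AKR1C2, TNFRSF1B and VIPR1 lost their call in at least 1 fit, with fold changes that ranged to below 2, and PDGFRB and LCN2 lost it through the adjusted p, with log2 fold changes of −1.915 to −1.184 and −1.537 to −1.14. Between 15403946 and 19988111 counts per sample leave genes under 0.150 to 0.198 CPM undetected.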
